A study of Mus musculus with 21 samples.

Results

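The 40 genes described here encode the machinery of mitosis and chromosome segregation, and all 40 were found by gene symbol, each on 1 line, among the 55421 genes of a QuantSeq table. They comprise 4 genes of cyclins and *Cdk1*, 2 further mitotic kinases, 6 genes of the spindle checkpoint and its target *Cdc20*, 4 of the chromosomal passenger complex, 7 of the centromere and kinetochore, 4 of spindle motors and microtubule-binding proteins, 6 of the central spindle and cytokinesis, and 7 of condensin and chromosome structure. QuantSeq reads only the 3′ end of each mRNA. The table holds 15 libraries, 3 for each of sgControl, sgZbtb1, sgCbfa2t3, sgCbfa2t2 and sgLmo2. All came from 1 lymphoid progenitor (LP) cell line of the C57BL6/J strain, made from mice that lack *Ebf1*, a factor needed for B cell commitment. The cells carried Cas9-GFP from a retrovirus and were grown on OP9 stromal cells with SCF, IL-7 and Flt3L. A second retrovirus with an hNGFR marker carried sgRNAs against *Zbtb1*, *Cbfa2t3*, *Cbfa2t2* or *Lmo2*, or against luciferase as control. GFP+hNGFR+ cells were sorted some days later, without Notch stimulation. Each library is therefore a mixture of edited cells and not a clone, and every group, the control included, lacks *Ebf1* and carries Cas9. The study describes the 3 libraries of a group as independent biological replicates, all of the same cell line, and p-values measure the spread between them.

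Cells enter mitosis when Cdk1 bound to an A- or B-type cyclin phosphorylates many proteins, after which condensins compact the chromosomes and kinetochores attach them to the spindle. The spindle checkpoint holds back Cdc20 until every chromosome is attached, and the anaphase-promoting complex with Cdc20 then destroys the B-type cyclins and lets the cell divide. Most of these genes are transcribed mainly in G2 and M phase, through the MuvB complex with B-Myb and FoxM1, which acts at an element called CHR and at CCAAT boxes bound by NF-Y. The mRNA of these genes in a bulk library thus depends both on how many cells are cycling and on the RNA in each such cell, and a smaller share of dividing cells cannot be told apart here from less RNA per cell.

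To show what the members have in common in sequence, their promoters were read from RefSeq (GRCm38.p6, from 250 bases before to 50 after each start site). Entries were matched by symbol for 33 of 40 members, in 36 windows, since *Bub3*, *Ect2* and *Prc1* have 2 overlapping windows each. *Aurkb*, *Ccna2*, *Incenp*, *Kif20a*, *Smc4*, *Spc24* and *Tpx2* had no entry. A CHR element was searched as TTTGAA or TTCGAA and an NF-Y box as CCAAT, each on both strands, and these motifs do not overlap one another. 29 of the 36 member windows (80.6%) held a CHR element, against 19.2% of the 32851 windows of all genes and 13.9% of the 10792 windows of genes tested here. Within 50 bases of the start site the share was 69.4% for the members and 3.75% for the tested genes. A CCAAT box was in 77.8% of the member windows and in 38.1% of those of the tested genes, and both a CHR element within 50 bases of the start and a CCAAT box were in 63.9% against 1.83%. By gene, 26 of 33 members held a CHR element, and *Birc5*, *Ccnb1*, *Cenpe*, *Mad2l1*, *Ncaph*, *Nuf2* and *Nusap1* held none in this window. A match is a description of letters and not evidence of a bound site.

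The 8 promoters printed here, in GRCm38.p6 from 150 bases before to 30 bases after the start site, were chosen as examples of these arrangements, of a promoter without CHR (*Ccnb1*) of a promoter that a ChIP peak covers (*Mki67*) and of one that a peak overlaps only upstream of its start site (*Cenpa*). Capitals mark the CCAAT boxes and CHR elements on either strand. *Ccnb1* is on chr13:100786457-100786636, minus strand. *Ccnb2* is on chr9:70421525-70421704, minus strand. *Cdk1* is on chr10:69352883-69353062, minus strand. *Cdc20* is on chr4:118437314-118437493, minus strand. *Cenpa* is on chr5:30666736-30666915, plus strand. *Kif11* is on chr19:37376232-37376411, plus strand. *Top2a* is on chr11:99024160-99024339, minus strand. *Mki67* is on chr7:135716350-135716529, minus strand.
Ccnb1: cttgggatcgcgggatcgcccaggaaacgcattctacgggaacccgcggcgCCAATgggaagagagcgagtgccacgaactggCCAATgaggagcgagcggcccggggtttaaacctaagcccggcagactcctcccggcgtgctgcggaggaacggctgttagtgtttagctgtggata
Ccnb2: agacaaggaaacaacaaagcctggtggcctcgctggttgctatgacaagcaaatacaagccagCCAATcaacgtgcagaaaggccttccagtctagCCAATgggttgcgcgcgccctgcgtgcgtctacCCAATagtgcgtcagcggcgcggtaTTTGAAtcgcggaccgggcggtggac
Cdk1: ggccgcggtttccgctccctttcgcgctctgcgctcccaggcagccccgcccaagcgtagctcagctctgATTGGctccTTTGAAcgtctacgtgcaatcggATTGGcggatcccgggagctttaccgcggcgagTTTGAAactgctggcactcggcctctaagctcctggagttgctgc
Cdc20: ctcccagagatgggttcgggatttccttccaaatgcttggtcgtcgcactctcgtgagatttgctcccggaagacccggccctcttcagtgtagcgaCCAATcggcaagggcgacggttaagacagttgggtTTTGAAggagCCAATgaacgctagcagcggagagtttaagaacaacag
Cenpa: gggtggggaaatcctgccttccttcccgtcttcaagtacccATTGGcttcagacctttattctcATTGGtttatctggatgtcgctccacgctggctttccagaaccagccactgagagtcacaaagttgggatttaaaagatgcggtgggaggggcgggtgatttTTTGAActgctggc
Kif11: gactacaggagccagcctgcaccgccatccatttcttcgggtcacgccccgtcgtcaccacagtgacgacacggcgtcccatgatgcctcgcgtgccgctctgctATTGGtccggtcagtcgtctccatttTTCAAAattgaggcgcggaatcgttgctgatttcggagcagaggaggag
Top2a: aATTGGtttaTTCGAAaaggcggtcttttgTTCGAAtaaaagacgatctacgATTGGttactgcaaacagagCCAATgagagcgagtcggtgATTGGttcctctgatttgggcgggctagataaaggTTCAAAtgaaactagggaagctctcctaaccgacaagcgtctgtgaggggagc
Mki67: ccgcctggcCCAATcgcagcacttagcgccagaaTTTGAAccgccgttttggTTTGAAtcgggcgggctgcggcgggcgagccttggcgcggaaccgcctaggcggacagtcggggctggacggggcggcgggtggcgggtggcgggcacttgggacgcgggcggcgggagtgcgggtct
In these stretches *Ccnb2*, which encodes a B-type cyclin, carried 3 CCAAT boxes centred 85, 52 and 19 bases before the start and a CHR element 7 bases after it. *Cdk1* had CHR elements 68 and 12 bases before the start, with boxes at 78 and 46 bases. *Cdc20* had one 15 bases before the start, between boxes at 51 and 6 bases, *Kif11* one 16 bases before it, and *Cenpa* one 19 bases after it. *Top2a* carried 3 CHR elements, the nearest 20 bases before the start. The longer windows searched hold 1 more CHR element in each of *Top2a* and *Ccnb2*, farther upstream. In *Mki67* the CHR elements lay farther out, at 113 and 95 bases before the start.

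**Figure D1:**
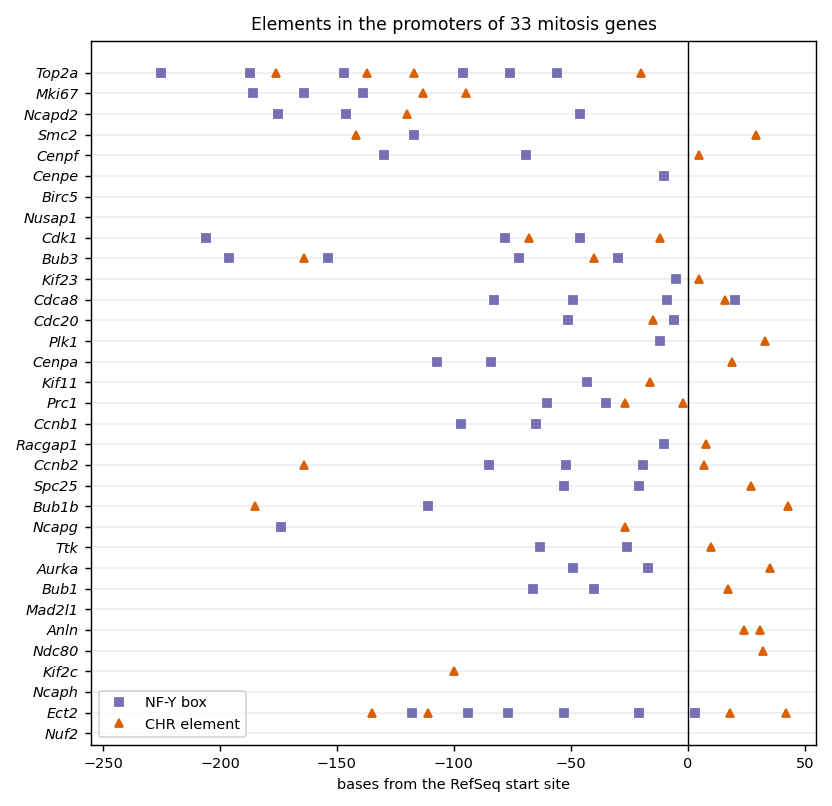
Positions of CHR elements (triangles) and CCAAT boxes bound by NF-Y (squares) in the promoters of the 33 members with a RefSeq entry, in bases from the start site (vertical line, negative before it), in the order of their level in sgControl; for members with 2 windows both are drawn on 1 line. CHR elements gather close to the start site in most members, 23 of 33 having one within 50 bases, while the boxes lie mostly upstream.

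The deposited values are called TPM but were not divided by gene length, so that each is the number of reads of a gene scaled to the same library total (CPM). With reads taken only at the 3′ end, a longer mRNA does not yield more reads. The libraries held 1705416 to 2095447 reads, and 3 reads, the floor used here, were worth 1.43 to 1.76 TPM. No member came near that floor, since the lowest count of any member in any library was 47 reads. Summed markers of lymphoid progenitors reached 1911 to 2145 TPM in every library, while 10 markers of OP9 stroma summed to 0 to 6.84 TPM, with *Col3a1*, *Timp1*, *Lum* and *Dcn* at 0 throughout. Markers of myeloid cells summed to 8.76 to 37.8 TPM, of B cells to 0 to 20.0 TPM, of T cells to 0 to 10.5 TPM and of erythroid cells to 0 to 3.42 TPM. The markers within a sum were uneven. Among the progenitor markers *Rag1* held 0.956 to 4.52 TPM (2 to 8 reads), around the floor, and *Kit* 6.87 to 25.4 TPM. *Pax5* made up most of the B cell sum, from 0 in 1 sgZbtb1 library to 18.1 TPM in 1 sgLmo2 library. The mRNA of *Zbtb1* was higher in the libraries labelled sgZbtb1 (106 ± 9.91 TPM, SD, n = 3) than in sgControl (61.7 ± 5.51), and that of *Cbfa2t3* was higher in the libraries labelled sgCbfa2t3 (349.8 ± 12.9 against 190.2 ± 18.7). *Cbfa2t2* mRNA was 21.9 ± 4.85 TPM in the libraries labelled sgCbfa2t2 and 11.8 ± 0.698 in sgControl, and *Lmo2* mRNA 16.3 ± 7.99 and 18.4 ± 4.17. The mean of the targeted mRNA was thus above that of sgControl in 3 of the 4 groups, and in sgLmo2 the libraries overlapped those of sgControl. An sgRNA can destroy a protein without lowering its mRNA. The study examined the Lmo2, Zbtb1 and Cbfa2t3 proteins by immunoblotting, which was not analysed here, and lists no blot of the Cbfa2t2 protein. The groups are named by their labels throughout.

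The levels of the mitosis genes spanned a wide range. In sgControl *Top2a* was the highest member at 2148 ± 11.6 TPM (SD, n = 3), followed by *Smc4* at 927 ± 32.7 TPM, and the 5 highest members, which also include *Mki67*, *Ncapd2* and *Smc2*, made up 48.3% of the summed level of all 40. The lowest members were *Nuf2* and *Kif20a*. For each member the highest of the 15 libraries exceeded the lowest by 1.23-fold (*Ncapd2*) to 2.00-fold (*Nuf2*), with a median of 1.50-fold. Together the 40 genes took 0.932% to 1.08% of each library.

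**Figure D2:**
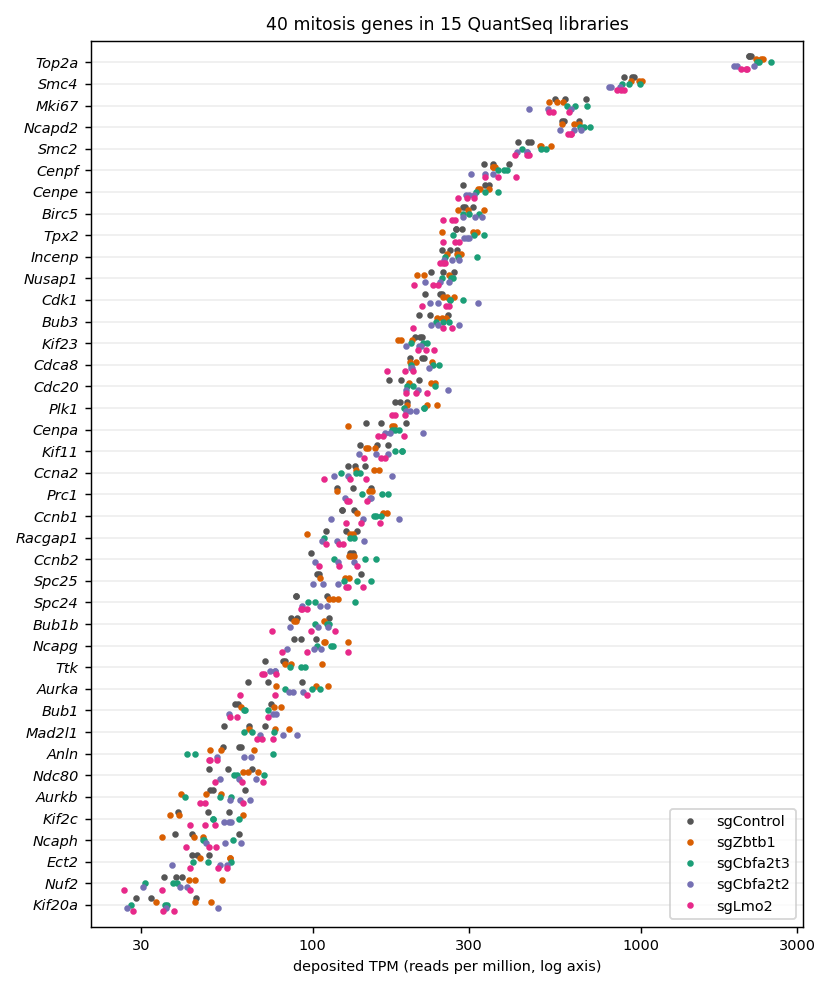
Deposited TPM (log axis) of each of the 40 members in each of the 15 libraries, 1 point per library, coloured by sgRNA, in the order of the sgControl mean. The points of 1 gene stay within a 2.00-fold range and the 5 colours lie among one another for most genes, while the genes themselves differ from 26.6 to 2491 TPM.

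The summed level of the 40 genes was 9659, 9985 and 9728 TPM in sgControl. It was 10039, 10454 and 10348 in the libraries labelled sgZbtb1, 1.05-fold the control mean, and 10279, 10812 and 10616 in those labelled sgCbfa2t3, 1.08-fold. These 6 libraries all lay above the 3 sgControl libraries. It was 9316, 9798 and 9939 in the libraries labelled sgCbfa2t2 (0.989-fold) and 9321, 9583 and 9756 in those labelled sgLmo2 (0.976-fold), and both groups overlapped sgControl. The 42 genes of DNA replication, which are transcribed earlier in the cycle, summed to 5720 ± 72.2 TPM in sgControl and to 6269 ± 112 in the libraries labelled sgZbtb1, 6110 ± 181 in sgCbfa2t2, 6128 ± 73.5 in sgCbfa2t3 and 5729 ± 143 in sgLmo2. All libraries of the first 3 of these groups lay above sgControl, and sgLmo2 overlapped it. The sums were not tested, and each is weighted toward its most abundant genes.

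**Figure D3:**
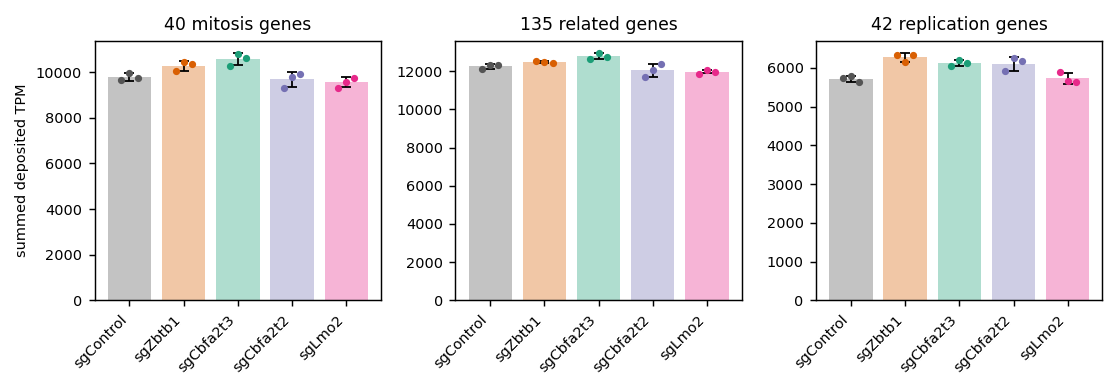
Summed deposited TPM of the 40 mitosis genes, of 135 related genes and of 42 DNA replication genes in each library (points), with the mean (bar) and SD (line) of the 3 libraries of each sgRNA. The sums of the mitosis genes run from 9316 to 10812 TPM over the 15 libraries.

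Each sgRNA was compared with sgControl by limma on log2(TPM + 1), with p-values adjusted over the 11554 genes with a mean above 1 TPM. All 40 members passed that filter. Their median standard error (SE) was 0.12 on the log2 scale, against 0.25 for all genes tested. A typical member would thus pass a p threshold at a smaller change than a typical gene, which bears on the shares below. No member passed an adjusted p of 0.05 in the libraries labelled sgZbtb1, where 4.79% of all genes did, in sgCbfa2t3 (0.537% of all genes), in sgCbfa2t2 (0.147%) or in sgLmo2 (0.0173%). Neither edgeR nor DESeq2 on the recovered reads called a member in these 4 comparisons. At an unadjusted p under 0.05, 7 of 40 members (17.5%) passed in sgZbtb1, all higher, where 7.37% of all genes were higher and 10.2% lower, and edgeR and DESeq2 each gave 7. In sgCbfa2t3 4 members passed, all higher (4.32% of all genes higher and 6.27% lower), with 6 by edgeR and 4 by DESeq2. In sgCbfa2t2 3 members passed, 1 higher and 2 lower (4.44% and 5.12% of all genes), as many as by edgeR and by DESeq2. In sgLmo2 none passed by limma or edgeR and 1 by DESeq2 (3.18% of all genes higher and 2.48% lower by limma). Leaving out 1 library at a time moved these unadjusted counts to between 1 (without sgControl replicate 1) and 5 in sgZbtb1, 2 (again without sgControl replicate 1) and 5 in sgCbfa2t3, 0 (without sgCbfa2t2 replicate 2) and 5 (without sgCbfa2t2 replicate 3) in sgCbfa2t2, and 0 and 2 (without sgControl replicate 3) in sgLmo2. None of the 40 met the thresholds of a differentially expressed gene used for these data (unadjusted p under 0.05, a log2 fold change above 1 in size and a mean above 10 TPM), which 1.66%, 0.658%, 0.502% and 0.234% of all genes met in sgZbtb1, sgCbfa2t3, sgCbfa2t2 and sgLmo2.

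The 95% confidence interval of the log2 fold change lay within ±1 for all 40 members in each of the 4 comparisons, so that a 2-fold change of any member lay outside its interval. It lay within ±0.5 for 38 members in sgLmo2, 34 in sgCbfa2t2, 33 in sgCbfa2t3 and 29 in sgZbtb1. The median log2 fold change of the members was 0.07 in sgZbtb1 (28 of 40 above 0), 0.11 in sgCbfa2t3 (34 of 40), 0.05 in sgCbfa2t2 (25 of 40) and -0.02 in sgLmo2 (19 of 40), where the median of all genes was -0.03, -0.01, 0.00 and 0.01. Of all genes tested 46.7%, 48.6%, 50.7% and 52.3% were above 0 in the same order. The members share libraries, so these counts are a description. The libraries' own median deviations from the sgControl mean ranged from 0.06 to 0.13 in sgZbtb1, from 0.08 to 0.19 in sgCbfa2t3, from -0.05 to 0.11 in sgCbfa2t2 and from -0.10 to 0.02 in sgLmo2, and from -0.04 to 0.02 among the sgControl libraries themselves. All 4 comparisons share the 3 sgControl libraries, so a shift of those libraries would move all of them together.

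**Figure D4:**
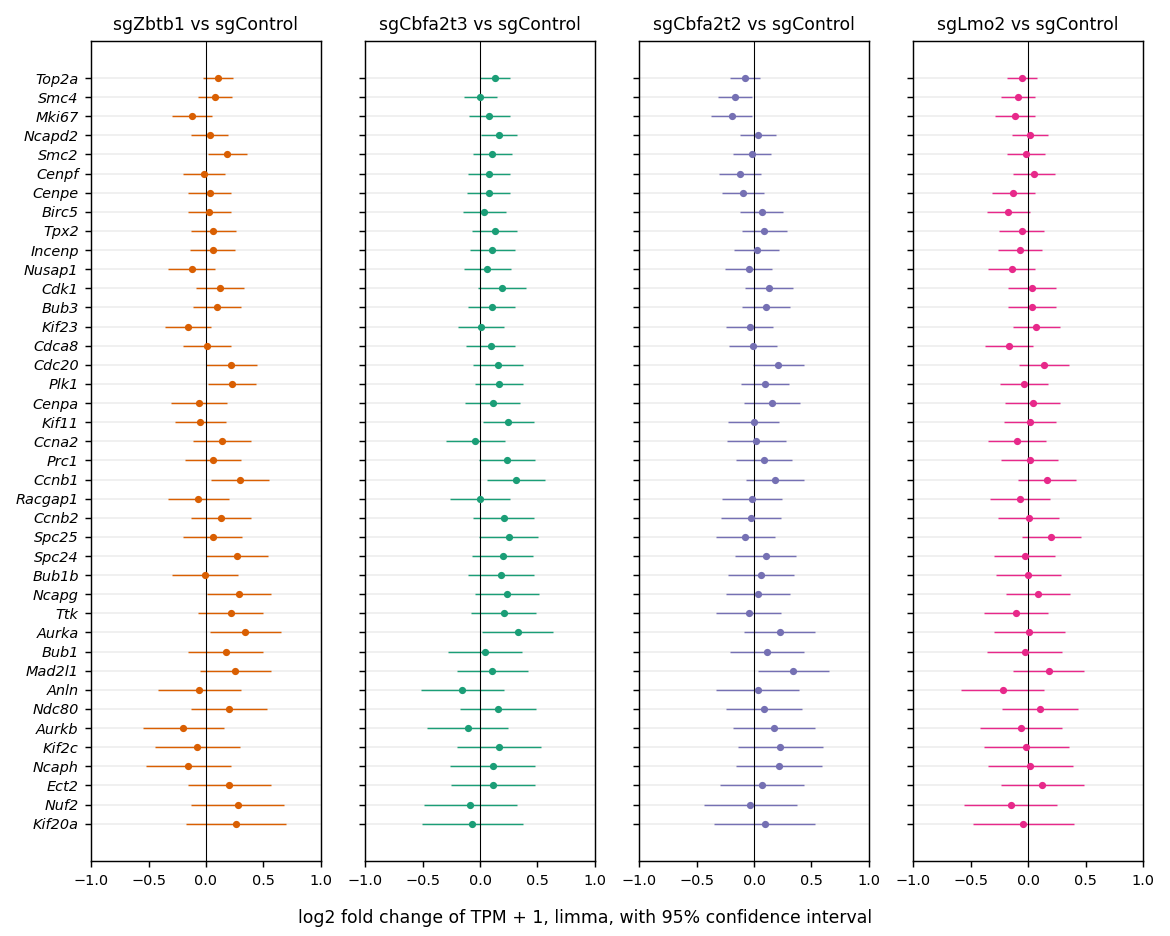
Log2 fold change of TPM + 1 of each of the 40 members against sgControl by limma (point) with its 95% confidence interval (line), 1 panel for each sgRNA, n = 3 libraries per group, genes in the order of the sgControl mean. All intervals end inside ±1, and the points run from -0.22 to 0.34.

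Among the cyclins and *Cdk1*, *Ccnb1*, the cyclin that drives entry into mitosis, had the smallest unadjusted p of the members in both sgZbtb1 and sgCbfa2t3. The sgControl libraries gave 123, 123 and 134 TPM of *Ccnb1*. Those labelled sgZbtb1 gave 164, 137 and 168, sgCbfa2t3 157, 154 and 162, sgCbfa2t2 142, 183 and 114 and sgLmo2 126, 140.3 and 161 TPM. The sgZbtb1 and sgCbfa2t3 libraries all lay above the 3 sgControl libraries, and the other groups overlapped them. The log2 fold change of *Ccnb1* was 0.30 ± 0.13 (SE, adjusted p = 0.175) in sgZbtb1 and 0.31 ± 0.13 (SE, adjusted p = 0.344) in sgCbfa2t3 by limma. *Cdk1*, the kinase itself, was the most abundant of the 4. In sgControl *Cdk1* stood at 219.5, 248 and 245 TPM. In sgLmo2 it stood at 215, 261 and 255 TPM, in sgCbfa2t2 at 228, 319.7 and 242, in sgCbfa2t3 at 263, 288 and 263 and in sgZbtb1 at 256, 269 and 250.4. The sgZbtb1 and sgCbfa2t3 libraries again lay above sgControl, by a log2 fold change of 0.12 ± 0.10 (SE, adjusted p = 0.586) and 0.19 ± 0.10 (SE, adjusted p = 0.52) (limma). *Ccna2*, which acts from S phase on, and *Ccnb2* overlapped sgControl in every group, with log2 fold changes between -0.10 and 0.20.

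The 2 further kinases were *Aurka*, which matures the centrosomes and spindle poles, and *Plk1*, which acts at several steps from entry to cytokinesis. Levels of *Aurka* were 73.2, 63.7 and 92.6 TPM in sgControl and 77.7, 111 and 103 TPM in sgZbtb1. They were 105, 99.3 and 82.5 TPM in sgCbfa2t3, 59.9, 76.8 and 95.9 in sgLmo2 and 84.6, 87.3 and 93.2 in sgCbfa2t2. All groups overlapped sgControl. *Aurka* had the largest log2 fold change of any member in sgZbtb1, 0.34 ± 0.16 (SE, adjusted p = 0.218), and in sgCbfa2t3, 0.33 ± 0.16 (SE, adjusted p = 0.438) (limma). Leaving out a library moved it between 0.22 (without sgControl replicate 2) and 0.49 (without sgZbtb1 replicate 1 or sgControl replicate 3) in sgZbtb1, and between 0.21 and 0.47 (without sgControl replicates 2 and 3 in turn) in sgCbfa2t3. *Plk1* measured 185, 178 and 195 TPM in the 3 sgControl libraries. It measured 194, 223 and 239 TPM in those labelled sgZbtb1, 190.3, 219 and 218 in sgCbfa2t3, 179, 174 and 192 in sgLmo2 and 206, 198 and 193 in sgCbfa2t2. In the libraries labelled sgZbtb1 the lowest of the 3 fell just within the sgControl range, and the log2 fold change of *Plk1* was 0.23 ± 0.10 (SE, adjusted p = 0.225) (limma). It was -0.04 ± 0.10 (SE, adjusted p = 0.987) in sgLmo2.

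Of the 6 spindle checkpoint genes, *Bub3*, which brings Bub1 to kinetochores, was the most abundant. The sgControl libraries gave 259, 211 and 228 TPM of *Bub3*. Those labelled sgZbtb1 gave 240.2, 249 and 256, sgCbfa2t3 237, 249 and 260.4, sgCbfa2t2 241, 279 and 229 and sgLmo2 249, 203 and 265 TPM. The groups overlapped throughout. *Ttk* encodes the kinase Mps1 at the head of the checkpoint. In sgControl *Ttk* stood at 82.5, 71.8 and 81.5 TPM. In sgLmo2 it stood at 71.2, 77.2 and 70.1 TPM, in sgCbfa2t2 at 76.6, 74.4 and 76.8, in sgCbfa2t3 at 85.2, 91.9 and 94.7 and in sgZbtb1 at 86.0, 82.2 and 107. The sgCbfa2t3 libraries lay above sgControl and the others overlapped it, with a log2 fold change of 0.20 ± 0.14 (SE, adjusted p = 0.654) by limma. *Mad2l1*, which binds Cdc20 and keeps it inactive, had the largest log2 fold change of any member in sgCbfa2t2, 0.34 ± 0.15 (SE, adjusted p = 0.473) by limma, with overlapping groups. *Cdc20* differed from sgControl by 0.22 ± 0.11 (SE, adjusted p = 0.283) on the log2 scale in sgZbtb1 (limma). *Bub1* and *Bub1b*, a checkpoint kinase and its relative, had log2 fold changes between -0.03 and 0.18 in the 4 comparisons.

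The chromosomal passenger complex corrects wrong attachments of chromosomes through the kinase Aurkb, held in place by *Birc5* (survivin), *Cdca8* (borealin) and *Incenp*. Levels of *Birc5* were 309, 291 and 287 TPM in sgControl and 297, 278 and 332 TPM in sgZbtb1. They were 322, 299.8 and 288 TPM in sgCbfa2t3, 249.9, 272 and 265 in sgLmo2 and 313, 329 and 287 in sgCbfa2t2. The sgLmo2 libraries all lay below the 3 sgControl libraries, with a difference of -0.17 ± 0.09 (SE, adjusted p = 0.885) on the log2 scale (limma), the smallest unadjusted p of any member in that comparison, 0.0721. All 4 genes of the complex were below 0 there, with log2 fold changes from -0.17 to -0.06, none past the test. Their summed level was 821 ± 9.57 TPM in sgControl and 750.0 ± 35.6 in sgLmo2 (0.913-fold). Sums of other roles moved further, such as *Aurka* with *Plk1* at 1.20-fold in sgZbtb1 and 1.16-fold in sgCbfa2t3. No sum of a role was tested. *Aurkb* had the lowest log2 fold change of the members in sgZbtb1, -0.20 ± 0.18 (SE, adjusted p = 0.612) (limma).

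Of the centromere and kinetochore genes, *Cenpf*, a large kinetochore and matrix protein, had the highest level. *Cenpf* measured 354, 396 and 332 TPM in the 3 sgControl libraries. It measured 355, 355 and 359 TPM in those labelled sgZbtb1, 367, 383 and 391 in sgCbfa2t3, 336, 368 and 417 in sgLmo2 and 335, 305 and 355 in sgCbfa2t2. No group lay apart from sgControl. *Spc24* and *Spc25* form 1 end of the Ndc80 complex, which binds microtubules. The sgControl libraries gave 88.9, 89.1 and 111 TPM of *Spc24*. Those labelled sgZbtb1 gave 115, 112 and 119, sgCbfa2t3 102, 135 and 96.9, sgCbfa2t2 93.1, 111 and 105 and sgLmo2 96.1, 91.9 and 93.1 TPM. In sgControl *Spc25* stood at 105, 103 and 141 TPM. In sgLmo2 it stood at 128, 142 and 127 TPM, in sgCbfa2t2 at 100.1, 119 and 108, in sgCbfa2t3 at 125, 151 and 136 and in sgZbtb1 at 106, 129 and 126. The sgZbtb1 libraries lay above sgControl for *Spc24*, with a log2 fold change of 0.27 ± 0.13 (SE, adjusted p = 0.282) (limma), while those of *Spc25* overlapped, at 0.06 ± 0.13 (SE, adjusted p = 0.875). *Nuf2*, at the other end of that complex, was also higher without overlap in sgZbtb1, at 0.28 ± 0.20 (SE, adjusted p = 0.518) by limma. *Cenpa*, the histone H3 variant that marks centromeres, *Cenpe*, a kinetochore motor, and *Ndc80* had log2 fold changes from -0.13 to 0.20.

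*Tpx2*, which starts microtubule growth at chromosomes, had the highest level of the spindle genes. Levels of *Tpx2* were 274, 274 and 284 TPM in sgControl and 308, 317 and 248 TPM in sgZbtb1. They were 312, 333 and 268 TPM in sgCbfa2t3, 279, 271 and 250.4 in sgLmo2 and 300.2, 289.7 and 295 in sgCbfa2t2. The sgCbfa2t2 libraries lay just above the 3 sgControl libraries, at 0.09 ± 0.10 (SE, adjusted p = 0.85) on the log2 scale (limma). *Kif11* encodes the motor that pushes the spindle poles apart. *Kif11* measured 139, 157 and 169 TPM in the 3 sgControl libraries. It measured 148, 155 and 146 TPM in those labelled sgZbtb1, 178, 187 and 187 in sgCbfa2t3, 161, 166 and 144 in sgLmo2 and 138, 156 and 170.0 in sgCbfa2t2. The sgCbfa2t3 libraries lay above sgControl and above all other libraries, with a log2 fold change of 0.25 ± 0.11 (SE, adjusted p = 0.409) (limma). Set directly against them, the sgZbtb1 libraries differed by -0.30 ± 0.11 (SE, adjusted p = 0.269) on the log2 scale. *Nusap1* and *Kif2c*, which bundle and take apart microtubules, had log2 fold changes from -0.14 to 0.23.

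*Kif23*, a motor of the central spindle, was the most abundant gene of cytokinesis. The sgControl libraries gave 216, 213 and 205 TPM of *Kif23*. Those labelled sgZbtb1 gave 187, 200.3 and 182, sgCbfa2t3 199, 218 and 223, sgCbfa2t2 193, 211 and 214 and sgLmo2 209.8, 222 and 235 TPM. It was the one member whose sgZbtb1 libraries all lay below sgControl, with a difference of -0.16 ± 0.10 (SE, adjusted p = 0.446) on the log2 scale (limma). *Anln*, which builds the contractile ring, had the lowest log2 fold change of the members in both sgCbfa2t3 and sgLmo2, with no overlap in sgLmo2. It was -0.15 ± 0.18 (SE, adjusted p = 0.826) in sgCbfa2t3 and -0.22 ± 0.18 (SE, adjusted p = 0.93) in sgLmo2 by limma. *Prc1*, *Racgap1*, *Ect2* and *Kif20a* overlapped sgControl in all groups, with log2 fold changes between -0.07 and 0.26.

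The most abundant group held *Top2a*, the enzyme that untangles sister DNA, *Mki67*, the proliferation marker Ki-67 that coats mitotic chromosomes, and 5 condensin subunits. In sgControl *Top2a* stood at 2144, 2161 and 2138 TPM. In sgLmo2 it stood at 2101, 2018 and 2089.9 TPM, in sgCbfa2t2 at 1921, 1960.4 and 2220.5, in sgCbfa2t3 at 2293, 2259 and 2491 and in sgZbtb1 at 2248, 2354 and 2332. The sgZbtb1 and sgCbfa2t3 libraries all lay above sgControl and the sgLmo2 libraries all below it, while 1 sgCbfa2t2 library lay above it and the other two below. Its log2 fold change was 0.11 ± 0.07 (SE, adjusted p = 0.428) in sgZbtb1 and 0.13 ± 0.07 (SE, adjusted p = 0.492) in sgCbfa2t3, against -0.05 ± 0.07 (SE, adjusted p = 0.957) in sgLmo2 and -0.08 ± 0.07 (SE, adjusted p = 0.75) in sgCbfa2t2 (limma). Levels of *Smc4* were 890.3, 953 and 938 TPM in sgControl and 935, 988 and 1011 TPM in sgZbtb1. They were 875, 992 and 921 TPM in sgCbfa2t3, 848, 873 and 891 in sgLmo2 and 799.9, 809 and 868 in sgCbfa2t2. *Smc4*, a core subunit of both condensins, was lower without overlap in sgCbfa2t2, at -0.17 ± 0.07 (SE, adjusted p = 0.459) on the log2 scale (limma). *Smc2* measured 422, 454 and 463 TPM in the 3 sgControl libraries. It measured 496, 531 and 495 TPM in those labelled sgZbtb1, 434, 515 and 496 in sgCbfa2t3, 456, 451 and 414 in sgLmo2 and 451, 420.0 and 452 in sgCbfa2t2. Its partner *Smc2* was higher without overlap in sgZbtb1, at 0.18 ± 0.08 (SE, adjusted p = 0.225) (limma). The sgControl libraries gave 587, 679.5 and 548 TPM of *Mki67*. Those labelled sgZbtb1 gave 558, 579 and 526, sgCbfa2t3 631, 688 and 595, sgCbfa2t2 523, 455 and 613 and sgLmo2 606, 541 and 525 TPM. *Mki67* overlapped sgControl in all groups, with -0.19 ± 0.09 (SE, adjusted p = 0.476) on the log2 scale in sgCbfa2t2 (limma), which ranged from -0.30 without sgCbfa2t2 replicate 3 to -0.09 without sgCbfa2t2 replicate 2. *Ncapd2* and *Ncapg* of condensin I were both higher without overlap in sgCbfa2t3, and *Ncapg* also in sgZbtb1. By limma *Ncapd2* was at 0.17 ± 0.08 (SE, adjusted p = 0.441) in sgCbfa2t3, and *Ncapg* at 0.23 ± 0.14 (SE, adjusted p = 0.579) there and at 0.29 ± 0.14 (SE, adjusted p = 0.263) in sgZbtb1. *Ncaph* overlapped in all groups.

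Counted over all members, 7 of 40 (17.5%) were higher without overlap in sgZbtb1 and 1 lower, where 10.1% of all genes were higher and 12.8% lower. In sgCbfa2t3 7 were higher and 0 lower (6.7% and 9.06% of all genes). In sgCbfa2t2 1 was higher and 1 lower (6.88% and 6.85%), and in sgLmo2 0 were higher and 3 lower (5.62% and 4.97%). Many of the genes behind these shares of all genes had a larger SE than the members.

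To compare the groups with one another, sgZbtb1 was set against the other sgRNAs. Against sgCbfa2t3, no member passed an adjusted p of 0.05 by limma (1.13% of all genes did), edgeR or DESeq2, and 2 passed unadjusted, *Kif11* and *Mki67*, both lower in sgZbtb1 (4.54% of all genes higher and 5.45% lower), with 2 by edgeR and 1 by DESeq2. Against sgLmo2, none passed by limma (5.06% of all genes) or edgeR and 2 by DESeq2, *Smc4* and *Top2a*, and 10 of 40 passed unadjusted by limma, 9 of them higher in sgZbtb1 (6.93% of all genes higher and 10.5% lower) and *Kif23* lower, with 12 by edgeR, all higher in sgZbtb1, and 12 by DESeq2, 11 of them higher. With 1 library left out, only 5 to 7 passed unadjusted by limma, 7 without sgZbtb1 replicate 1 or sgLmo2 replicate 3 and 5 without each of the other 4 in turn. The shares of all genes in these comparisons are those by limma. Against sgCbfa2t2, none passed by limma (2.27% of all genes). *Smc4* came nearest there, at 0.24 ± 0.07 (SE, adjusted p = 0.0582), and it was called by edgeR (adjusted p = 0.0389) and, with *Top2a*, by DESeq2 (adjusted p = 0.00233 for *Smc4*). At an unadjusted p, 5 members passed by limma, 3 higher in sgZbtb1 and 2 lower (4.89% and 7.76% of all genes). With another scaling all were higher in sgZbtb1, 5 by limma with size factors, 5 by edgeR and 4 by DESeq2. Leaving out a library gave 3 to 6 unadjusted by limma here and 1 to 3 against sgCbfa2t3. In an F test over the 5 conditions, no member passed (4.54% of all genes did), 3 passed unadjusted (16.7% of all genes; 2 to 6 members with a library left out), and *Top2a* was nearest with an adjusted p of 0.0892 by limma and 0.0432 by edgeR, which called that 1 member, with 7 unadjusted. Without sgCbfa2t2 replicate 3, whose *Top2a* level was the highest of its group, limma called *Top2a* and *Mki67* in the F test (adjusted p = 0.0226 and 0.0411) and *Smc4* and *Top2a* in sgZbtb1 against sgCbfa2t2.

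Within conditions the members did not vary closely together. After each library's value was taken relative to its condition mean on the log2 scale, the median Pearson r over the 780 pairs of members was 0.09 across the 15 libraries, against 0.01 over the pairs of the 4706 genes at or above the lowest member's mean of 36.5 TPM. The pairs share libraries and are a description. The median SD between replicates was 0.16 on the log2 scale for the members, where counting error alone gives 0.09 at these depths, and 0.17 for the 4706 genes, where it gives 0.12.

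The wider programme was followed in 135 related genes, among them the anaphase-promoting complex, cohesin, further kinetochore genes and the transcription factors of the programme. They also include cell cycle regulators that are not mitosis genes, such as *Cdkn1a*, *Trp53* and *E2f2*. In sgZbtb1 2 of 135 (1.48%) passed an adjusted p of 0.05 by limma, *Cdkn1a* higher and *E2f2* lower, where 4.79% of all genes passed. In sgCbfa2t3 1 passed (0.741%, against 0.537% of all genes), *E2f2*, higher. In sgCbfa2t2 and sgLmo2 0 passed by limma, edgeR or DESeq2. At an unadjusted p under 0.05, 11 passed by limma in sgZbtb1 (8.15%, where 7.37% of all genes were higher and 10.2% lower) and 9 in sgCbfa2t3 (6.67%, where 4.32% were higher and 6.27% lower). In sgCbfa2t2 12 passed (8.89%, where 4.44% of all genes were higher and 5.12% lower) and 7 in sgLmo2 (5.19%, where 3.18% were higher and 2.48% lower). None of these shares was tested against that of all genes. The median log2 fold change of the 135 was -0.03, 0.04, -0.02 and -0.04 in sgZbtb1, sgCbfa2t3, sgCbfa2t2 and sgLmo2. Of the 42 replication genes, 1 (2.38%, against 4.79% of all genes) passed in sgZbtb1, *Rpa2*, a subunit of the protein that coats single-stranded DNA, at a log2 fold change of 0.34 ± 0.10 (SE, adjusted p = 0.0291) (limma), and leaving out any 1 of the 6 libraries compared gave an adjusted p of 0.0586 to 0.116.

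*Cdkn1a* encodes p21, a target of p53 that inhibits cyclin-dependent kinases. In sgControl *Cdkn1a* stood at 508, 486 and 478 TPM. In sgLmo2 it stood at 515, 545 and 382 TPM, in sgCbfa2t2 at 404, 476 and 507, in sgCbfa2t3 at 540.5, 553 and 561 and in sgZbtb1 at 697, 715 and 623. The sgZbtb1 libraries all lay above every other library, and *Cdkn1a* rose there by a log2 fold change of 0.46 ± 0.09 (SE, adjusted p = 0.000496) (limma). The sgCbfa2t3 libraries also all lay above sgControl, without passing the adjusted p. Set directly against sgCbfa2t3, *Cdkn1a* was higher in sgZbtb1 only at an unadjusted p under 0.05. Against sgCbfa2t2 and sgLmo2 it passed the adjusted p of 0.05 (limma). *Trp53*, which encodes p53, did not pass in any group. Levels of *Trp53* were 62.1, 63.1 and 68.6 TPM in sgControl and 68.2, 57.9 and 50.6 TPM in sgZbtb1. They were 53.6, 74.8 and 54.8 TPM in sgCbfa2t3, 84.8, 60.1 and 76.1 in sgLmo2 and 79.8, 51.1 and 58.9 in sgCbfa2t2. Its log2 fold change was -0.14 ± 0.17 (SE, adjusted p = 0.728) in sgZbtb1 by limma, with overlapping groups. *E2f2*, a factor of the G1 to S transition, moved in opposite directions in these groups. *E2f2* measured 76.1, 74.1 and 83.3 TPM in the 3 sgControl libraries. It measured 53.6, 52.1 and 40.3 TPM in those labelled sgZbtb1, 153, 143 and 153 in sgCbfa2t3, 65.6, 80.2 and 77.8 in sgLmo2 and 60.7, 53.4 and 71.5 in sgCbfa2t2. The sgZbtb1 and sgCbfa2t2 libraries all lay below and the sgCbfa2t3 libraries all above sgControl, and the difference in sgCbfa2t2 was -0.33 ± 0.15 (SE, adjusted p = 0.467) on the log2 scale by limma. *E2f2* fell in sgZbtb1, at a log2 fold change of -0.68 ± 0.15 (SE, adjusted p = 0.00209), and rose in sgCbfa2t3, at 0.94 ± 0.15 (SE, adjusted p = 6.21e-05), and the difference between the 2 groups was -1.61 ± 0.15 (SE, adjusted p = 2.09e-12) on the log2 scale by limma.

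The regulators that drive the mitotic genes were measured as well. *Foxm1* acts on mitotic promoters in G2. The sgControl libraries gave 64.5, 66.0 and 42.8 TPM of *Foxm1*. Those labelled sgZbtb1 gave 43.6, 36.3 and 54.5, sgCbfa2t3 48.8, 46.2 and 47.1, sgCbfa2t2 53.2, 45.8 and 57.0 and sgLmo2 40.1, 56.7 and 48.2 TPM. The sgControl libraries ran from 42.8 to 66.0 TPM and overlapped every group, and the log2 fold change of *Foxm1* in sgZbtb1 was -0.35 ± 0.19 (SE, adjusted p = 0.322) (limma). *Mybl2* encodes B-Myb, which joins MuvB in S phase. In sgControl *Mybl2* stood at 10.5, 23.7 and 15.8 TPM. In sgLmo2 it stood at 17.5, 10.3 and 13.7 TPM, in sgCbfa2t2 at 18.6, 12.4 and 15.9, in sgCbfa2t3 at 13.4, 19.4 and 9.97 and in sgZbtb1 at 22.3, 20.6 and 22.6. The level was low, 18 to 46 reads a library, and the log2 fold change was 0.44 ± 0.31 (SE, adjusted p = 0.505) in sgZbtb1 (limma).

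**Figure D5:**
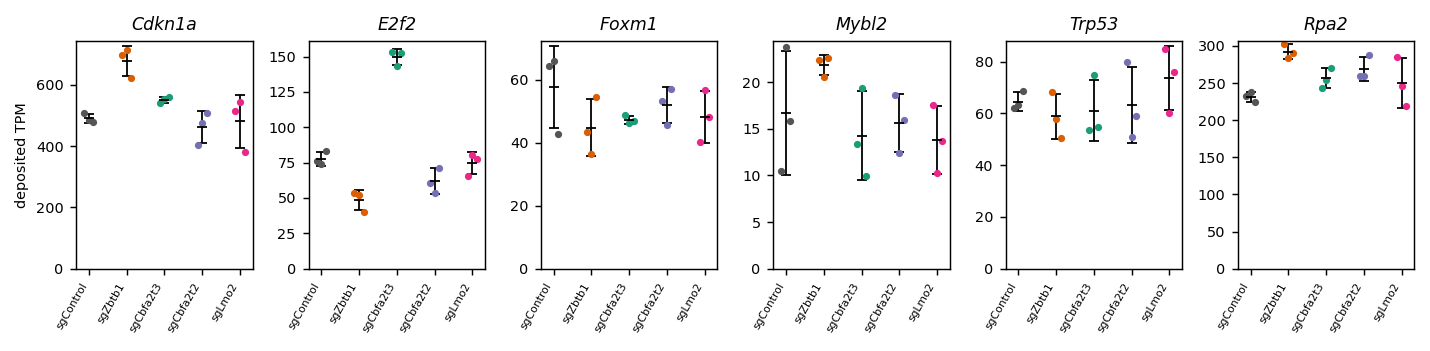
Deposited TPM of 5 regulators of the cell cycle and of *Rpa2* in each library (points), with the mean (horizontal mark) and SD (line) of the 3 libraries of each sgRNA; each panel has its own axis from 0. *Cdkn1a* is highest in the 3 sgZbtb1 libraries, and *E2f2* has its lowest mean in sgZbtb1 and its highest in sgCbfa2t3.

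To ask where Zbtb1 and Cbfa2t3 bind near these genes, the ChIP-seq peak lists (mm10) of LP cells grown on OP9 without an sgRNA were searched. There is 1 list for each factor, with 2 ChIP samples behind it. A member counts here when it is the gene whose start site the list names as nearest to a peak. Zbtb1 peaks were nearest to 8 of 40 members (20.0%), against 26.8% of the 11554 genes tested, and Cbfa2t3 peaks to 6 of 40 (15%) against 20.5%. Within 1 kb of the start site the counts were 5 of 40 (12.5%, against 18.1%) and 3 of 40 (7.50%, against 6.41%). These shares carry no test.

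The strongest peak was that of Zbtb1 at *Aurkb*, at chr11:69045502-69045872 with a peak score of 187.5, centred 50 bases after the start and higher than 96.8% of the Zbtb1 peaks. At *Ndc80* a Zbtb1 peak covered the 5′ UTR (chr17:71526563-71526933, score 54.5), and at *Mki67* the promoter (chr7:135716246-135716616, score 30.4), including the whole *Mki67* promoter stretch printed above. Weaker Zbtb1 peaks lay at the promoter of *Incenp* (chr19:9899509-9899879, score 24.8) and 541 bases into *Ect2* (chr3:27153128-27153498, score 18.5), beside the start of 1700125G22Rik. Zbtb1 peaks also lay 3449 bases before *Ccnb1* and 6538 bases before *Cenpf*. The region before *Ccnb1* (chr13:100789750-100790120) held 38 overlapping copies of TGGTGGT in the 200 bases at its centre, the letters of a simple repeat. Cbfa2t3 peaks lay at the promoters of *Birc5* (chr11:117848954-117849332, score 40.5), *Cenpa* (chr5:30666444-30666822, score 30) and *Bub1b* (chr2:118597608-118597986, score 21.9). No promoter of a member carried a peak of both factors. None of these 8 genes passed the test in the libraries labelled for the factor that binds there, with log2 fold changes by limma of -0.20 (*Aurkb*), 0.20 (*Ndc80*), -0.12 (*Mki67*), 0.06 (*Incenp*) and 0.20 (*Ect2*) in sgZbtb1, and of 0.04 (*Birc5*), 0.11 (*Cenpa*) and 0.18 (*Bub1b*) in sgCbfa2t3.

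Only 1 region was listed for both factors among the peaks nearest to members. It lay 18712 bases upstream of *Kif23* in an intron of *Paqr5*, at chr9:61965326-61965696 for Zbtb1 (score 51.7) and chr9:61965388-61965766 for Cbfa2t3 (score 34.1). Its central 200 bases in the Zbtb1 list are printed here, plus strand of GRCm38.p6, chr9:61965412-61965611, with capitals on the 1 match to TGTGGT, the core that Runx factors recognise, on the minus strand.
Region upstream of Kif23: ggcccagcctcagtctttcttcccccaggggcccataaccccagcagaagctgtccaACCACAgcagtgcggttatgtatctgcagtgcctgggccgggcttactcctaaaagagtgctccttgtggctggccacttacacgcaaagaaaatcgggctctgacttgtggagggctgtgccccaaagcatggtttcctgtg
TGTGGT on either strand was in the central 200 bases of 3 of the 9 Zbtb1 peaks and 2 of the 8 Cbfa2t3 peaks nearest to members, against 41.3% of all Zbtb1 peaks and 43.7% of all Cbfa2t3 peaks. A CHR element was in 3 of these 9 Zbtb1 peaks, those at *Aurkb*, *Ndc80* and *Mki67*, against 7.16% of all Zbtb1 peaks, and in 0 of the 8 Cbfa2t3 peaks, against 9.54%. The 3 Zbtb1 peaks with a CHR element lie at start sites of members. Of the member promoter windows, read without regard to peaks, 80.6% held a CHR element. The contrast with all Zbtb1 peaks cannot be told apart from that. No member nearest to a Zbtb1 or Cbfa2t3 peak passed the test in any group against sgControl.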

How the data were processed

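QuantSeq and ChIP-seq values were used as the authors deposited them, and no reads were realigned. Per the labels and the study's methods, fastp, STAR and, for ChIP-seq, Bowtie 1.1.1 and HOMER were used. The deposited TPM of a gene are CPM, reads scaled to a fixed total without division by length, and dividing by the value of 1 read recovered whole counts within 0.05 read for 100% of the deposited values. The 1 row without a gene identifier was left out, with at most 0.586 TPM. The deposited HOMER lists give 1 peak score per region of mm10.

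Values were tested as log2(TPM + 1) with limma 3.58.1 (R 4.3.3), with the trend option, all 15 libraries and 5 conditions in 1 fit, for 11554 genes with a mean above 1 TPM, and with Benjamini-Hochberg adjustment. All tests were two-sided, with a threshold of 0.05 on the adjusted p. edgeR 4.0.16 and DESeq2 1.42.0 were run on the recovered counts as alternatives, beside other pseudocounts, filters, scalings, a replicate block, left-out libraries and peak limits. Only the limma fit was also run on simulated counts with known changes, as a check of the procedure, and the outcome is not given here. Libraries held 1705416 to 2095447 reads, and the floor of 3 reads covers counting error only. Values in every library were given, by rule, for members past the adjusted p in any comparison with sgControl (there were none), for the 12 members with the smallest adjusted p of the F test and for the highest member of each role. Related genes past the adjusted p, *Foxm1*, *Mybl2*, *Cdkn1a*, *Trp53* and members with a promoter peak were always named. Other members were named after their values were seen. The members and lists were chosen with earlier results of these data known. Promoters came from RefSeq (GRCm38.p6), read with Python 3.11.15, pandas 2.3.3 and samtools 1.23.1.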

Additional observations from a re-analysis of the deposited data

How the results depend on the processing

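No member was called against sgControl in any of the 4 groups under any alternative: another pseudocount, no filter, a mean above 10 TPM, size factors, a replicate block, a fit of the 2 groups alone, edgeR, DESeq2, unlogged TPM with the DEG thresholds, or a left-out library. In sgZbtb1 against sgCbfa2t2 1 member, *Smc4*, was called with a mean above 10 TPM, with size factors and by edgeR, and 2, *Smc4* and *Top2a*, by DESeq2, and leaving out a library gave 0 to 2. In sgZbtb1 against sgLmo2 DESeq2 called 2. In the F test 1 member, *Top2a*, was called with size factors and by edgeR, and leaving out a library gave 0 to 2. The 2 came without sgCbfa2t2 replicate 3 in both. The cause was not tested. The members nearest to a Zbtb1 peak numbered 5 with a score of at least 30 (12.5%, against 14.3% of all genes), 5 within 1 kb (18.1% of all genes) and 7 within 10 kb (17.5%, against 21.8%). For Cbfa2t3 they numbered 5 (12.5%, against 12.8%), 3 (7.5%, against 6.41%) and 3 (12.6% of all genes).

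Libraries that share a replicate number deviated together little (mean r 0.04, from -0.01 to 0.11 over 30 pairs), and nothing states that the numbers pair them. With the replicate number as a block, 1 member was called in sgZbtb1 against sgCbfa2t2 (*Smc4*) and 1 in the F test (*Top2a*), and 0 in each comparison with sgControl. The block moved the genes called among all 11554 from 17 to 36 in sgCbfa2t2 and from 2 to 14 in sgLmo2.

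Alternatives chosen after seeing the data left the median log2 fold change of the members, with a library left out, at 0.07 to 0.10 in sgZbtb1, 0.09 to 0.13 in sgCbfa2t3, 0.00 to 0.08 in sgCbfa2t2 and -0.05 to 0.01 in sgLmo2. The ratio of summed levels was then 1.04 to 1.06, 1.07 to 1.09, 0.976 to 1.01 and 0.965 to 0.988. Over all alternatives the genes called were 306 to 709 in sgZbtb1 (554 as reported), 19 to 93 in sgCbfa2t3 (62), 0 to 36 in sgCbfa2t2 (17), 1 to 14 in sgLmo2 (2) and 234 to 718 in the F test (525). The sign of a difference that passed in neither fit was not counted. With 3 libraries a group and a median SE of 0.12 on the log2 scale, a change smaller than its interval was not detectable.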
